A study of Danio rerio with 6 samples.

Results

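The clock genes *per1a*, *per1b* and *cry2* held 6 of the 9546 regions of open chromatin in the list that the authors deposited for the cortisol side of their comparison, made on blood of adult zebrafish exposed to cortisol or vehicle as embryos. The 6 were every listed region whose nearest gene was 1 of these 3, whatever its annotation. They comprised 1 region for *per1a*, 3 for *per1b* and 2 for *cry2*, and each was followed through the peak lists of the 6 libraries. ATAC-seq was used, in which a transposase cuts accessible DNA and the fragments pile up as peaks where chromatin is open.

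All fish were wild type of the AB strain, kept at 28 °C with 14 h of light and 10 h of dark. The cortisol group had 1 µM cortisol in the larval medium for 5 days and the control group had DMSO, the vehicle, for the same time, after which both grew up untreated. Each group had 3 libraries, and both libraries of a replicate number came from fish of the same age (12, 11 and 10 months for replicates 1, 2 and 3). The paper describes each as blood pooled from 6 fish of both sexes, whereas the series description speaks of individual fish, so n = 3 here counts libraries. The hour at which the blood for these libraries was drawn is not given in the sources used here.

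The circadian clock is a loop of transcription and repression that runs in most cells of zebrafish, where light can also set it directly in peripheral tissues. Clock and Bmal proteins bind E-boxes and switch on the *per* and *cry* genes, and Period and Cryptochrome proteins accumulate, enter the nucleus and repress Clock and Bmal. In mammals glucocorticoids act on peripheral clocks, and *Per1* is a direct target of the glucocorticoid receptor. *per1a* and *per1b* are the zebrafish co-orthologues of *Per1*, and *cry2* encodes a cryptochrome.

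Overlapping peaks were joined across libraries into 153054 merged regions, and 13835 of these had a peak in every library. A percentile below is the rank of a region's score in 1 library among those 13835 common regions, so that a value of 90 means that the region stood taller than 90% of them. Height is the number of reads piled up at a summit, recovered from the steps between the scores and divided by the height of the median common region of the library. The libraries held 26905 to 138146 peaks, and the median common region stood 6.97 to 30.8 times above the background of its library. Its height over background was 6.97 to 22.8 in controls and 14.2 to 30.8 in the cortisol group, so rank and centred height were compared rather than height over background. Of the 12 erythroid marker genes checked, 9 had a listed region, with summed heights of 22.1 to 38.6 times the median region in controls and 34.9 to 42.8 times in the cortisol group. The listed markers numbered 1 of 7 for myeloid cells, 2 of 9 for lymphoid cells and 2 of 5 for thrombocytes, with summed heights of 1.80 to 3.74, 3.89 to 5.12 and 4.06 to 6.31 in controls and 2.98 to 3.14, 4.98 to 5.66 and 5.16 to 5.94 in the cortisol group. The sums run over unlike numbers of genes, so they do not compare the cell types with each other. Globin genes *hbba1*, *hbaa2* and *hbba2*, the neutrophil genes *mpx* and *lyz* and the T cell gene *lck* had no listed region, which leaves peaks outside the list uncounted. The list was made for the cortisol group from these same libraries, so higher marker heights in that group are not independent of that choice. Mean percentile was higher in the cortisol group at 79.0% of all listed regions. A different mix of blood cells and a change within 1 kind of cell cannot be told apart in these libraries, and the part of the cell mix in the results below was not tested.

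All 6 regions had a peak in every library, but they ranged from the top of the common regions to below the middle. The mean percentile over the 6 libraries was 97.6 and 97.4 at the *per1b* promoter, 91.5 at the *cry2* promoter, 86.4 in the *cry2* intron, 73.0 upstream of *per1a* and 33.3 in the *per1b* intron. Mean percentile was higher in the cortisol group at 3 of the 6 and lower at the other 3, whereas it was higher at 79.0% and lower at 21.0% of all listed regions. Because the list was made from the same libraries as the regions called for the cortisol group, a direction in these counts is not independent of that choice. None of the 6 had every cortisol library above every control or below every control, against 9.54% and 0.775% of listed regions. In limma without pairing of the libraries, 0 of the 13835 common regions passed an adjusted p of 0.05, and 707, or 5.11%, had an unadjusted p below 0.05. With the replicate number as a block, limma called 756 common regions, 98 higher and 658 lower in the cortisol group. The 6 regions lay in 5 merged regions, with adjusted p of 0.70 to 0.88 in limma without the block. There 0 of the 5 had an unadjusted p below 0.05, and none of them was called with the block.

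**Figure D1:**
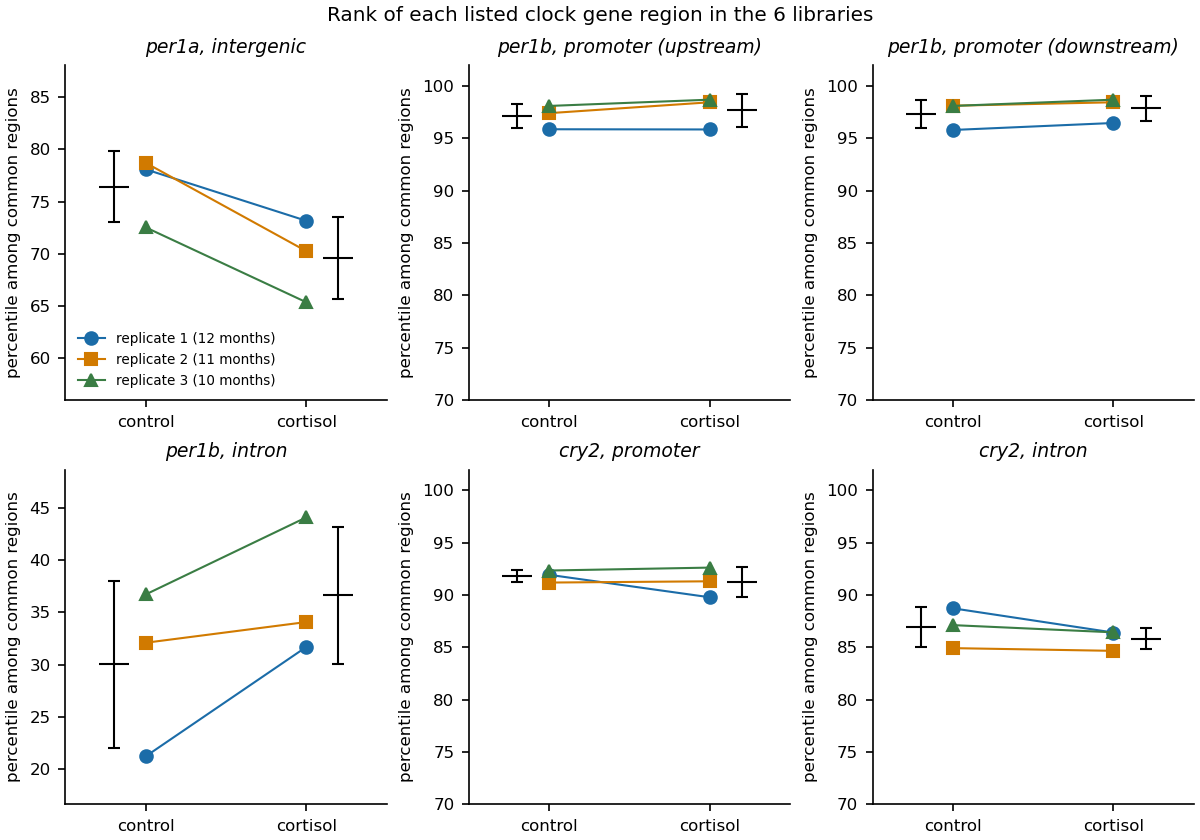
Percentile of each listed region of *per1a*, *per1b* and *cry2* among the 13835 common regions (vertical axis, spanning 32 points in every panel) in control and cortisol libraries. Lines join the libraries of a replicate number, and the black bars give the group mean ± SD (n = 3). The *per1a* region and the *cry2* intron were lower in the cortisol library of every pair. The *per1b* intron and the downstream promoter region of *per1b* were higher in every pair. The promoters of *per1b* and *cry2* stayed near the top in all 6 libraries.

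The promoter of *per1b*, one of the Period repressors, was the most open of these sites. It carried a pair of listed regions in GRCz10, chr7:50546379-50546857 of 479 bp centred 777 bp upstream of the transcription start and chr7:50546991-50547466 of 476 bp centred 167 bp upstream, 133 bp apart (transcript NM_212439, gene ENSDARG00000012499). At the region nearer to the start, the percentile was 95.8, 98.1 and 98.1 in control replicates 1, 2 and 3 and 96.5, 98.5 and 98.7 in cortisol replicates 1, 2 and 3. At the upstream region it was 95.9, 97.4 and 98.1 in controls and 95.9, 98.5 and 98.7 in the cortisol group, but in control replicate 3 and cortisol replicates 2 and 3 a single called region covered both, and the value is that of its taller, downstream summit. With the upstream summit itself the percentile was 95.9, 97.4 and 97.4 in controls and 95.9, 97.3 and 97.5 in the cortisol group. Replicate 1 was lowest in both groups on each measure, and the groups overlapped. At the nearer region the cortisol library was higher within each replicate number, by 0.661, 0.336 and 0.596 points. The group means at the nearer region were 97.4 ± 1.33 in controls and 97.9 ± 1.22 in the cortisol group (SD, n = 3), a difference of 0.531 points (exact permutation test, two-sided, p = 0.5). The upstream region differed by 0.540 points with the taller summit (exact permutation test, two-sided, p = 0.6) and by 0 points with its own summit (exact permutation test, two-sided, p = 1), an alternative chosen after seeing the data. With 3 libraries in each group, no p below 0.1 was possible at any single region. Of all 4493 listed promoter regions, 97.3% had a lower mean percentile than the nearer region.

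The 2 summits of the *per1b* promoter were resolved in every library, and their balance varied. In control replicates 1 and 2 and cortisol replicate 1 they lay in separate called regions of 575 to 608 bp, and in the other 3 libraries in 1 called region of 1245 to 1313 bp. The upstream and downstream summits held 315 and 313 reads in control replicate 1, 322 and 373 in control replicate 2, and 485 and 535 in control replicate 3. They held 463 and 498 reads in cortisol replicate 1, 688 and 819 in cortisol replicate 2, and 390 and 489 in cortisol replicate 3. The downstream summit was the taller in all but control replicate 1, with a ratio of 0.994 to 1.16 in controls and 1.08 to 1.25 in the cortisol group, so the ranges overlapped. The taller summit stood 4.85, 5.92 and 6.95 times above the median common region in controls and 6.15, 6.77 and 8.02 times in the cortisol group. On the log2 scale the promoter was 0.25 ± 0.22 (SE) higher in the cortisol group, which limma did not call (adjusted p = 0.70). With the replicate number as a block the SE was 0.16, and limma did not call the promoter either (adjusted p = 0.35).

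Inside *per1b*, a listed region of 242 bp at chr7:50550707-50550948, in intron 1 of 18 and centred 3432 bp downstream of the start, was far less open. Its percentile was 21.2, 32.1 and 36.7 in control replicates 1, 2 and 3 and 31.7, 34.1 and 44.1 in cortisol replicates 1, 2 and 3. The cortisol library was higher within each replicate number, by 10.5, 1.99 and 7.37 points, but cortisol replicates 1 and 2 lay among the controls. The difference of the means was 6.61 points, smaller than the SD of the control libraries, 7.95 (exact permutation test, two-sided, p = 0.5). Height was 0.646 to 0.762 times the median region in controls and 0.679 to 0.869 times in the cortisol group. The log2 height differed by 0.07 ± 0.20 (SE, limma, adjusted p = 0.88). Ranked among all peaks of each library instead of the common regions, the intron was 2.52 points lower in the cortisol group.

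The single listed region of *per1a*, the other Period gene of the set, was the one whose rank was lowest in the cortisol group relative to control. It covered 460 bp at chr10:22862026-22862485, annotated as intergenic and centred 3405 bp upstream of the start (NM_001030183, ENSDARG00000056885). Its percentile was 78.1, 78.7 and 72.5 in control replicates 1, 2 and 3 and 73.2, 70.3 and 65.4 in cortisol replicates 1, 2 and 3. Every cortisol library was below the control of its own number, with differences of -4.92, -8.45 and -7.16 points, yet cortisol replicate 1 lay just above control replicate 3. The means were 76.4 ± 3.40 in controls and 69.6 ± 3.93 in the cortisol group (SD, n = 3), a difference of -6.84 points that exceeded either SD (exact permutation test, two-sided, p = 0.2). An exact sign-flip permutation within replicate numbers reached p = 0.25, its lower limit with 3 pairs. The *per1b* promoter region nearer to the start, the *per1b* intron and the *cry2* intron reached the same limit in that test. Of all listed regions, 2.71% had a lower difference than *per1a*. The list was made for the cortisol group from these same libraries, so low differences are few in it by that choice. Among the 5259 unlisted common regions, 92.6% were lower in log2 height with the median centring, with a median of -0.38.

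The height of the *per1a* region depended on the scale on which it was read. The summit held 122, 112 and 131 reads in the controls and 145, 192 and 87 in the cortisol group, or 1.88, 1.78 and 1.70 times and 1.79, 1.59 and 1.43 times the median region. Centred on the median region, log2 height was -0.16 ± 0.17 (SE) in the cortisol group relative to control (limma, adjusted p = 0.72). Divided by the background of each library, the same summit stood 13.5, 12.4 and 38.8 times above background in controls and 25.4, 29.4 and 43.9 times in the cortisol group. On that scale the *per1a* difference was 0.78 (log2, adjusted p = 0.46), but the median common region was also shifted by 0.97, and *per1a* lay 0.19 below that shift. A scale that only shifts whole libraries cannot change that distance. Normal scores replace each rank by a quantile of the standard normal distribution, so they can change that distance and are not in log2 units. On that scale *per1a* lay 0.26 below the median of all common regions.

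The promoter of *cry2*, a cryptochrome, ranked high in all libraries and differed little between groups. The listed region covered 492 bp at chr25:13774637-13775128, centred 164 bp upstream of the start (NM_131786, ENSDARG00000102403). Its percentile was 91.9, 91.2 and 92.3 in control replicates 1, 2 and 3 and 89.8, 91.3 and 92.6 in cortisol replicates 1, 2 and 3. Cortisol replicate 1 was the lowest and cortisol replicate 3 the highest of the 6, so the cortisol libraries enclosed the controls. The difference of the means was -0.581 points against SD of 0.584 in controls and 1.42 in the cortisol group (exact permutation test, two-sided, p = 0.7). Height was 2.91 to 3.86 times the median region in controls and 3.39 to 4.03 times in the cortisol group, a log2 difference of 0.10 ± 0.18 (SE, limma, adjusted p = 0.82). The sign of this difference turned with the scale, since it was -0.02 when centred on the regions taller than the median one. On normal scores of the ranks, which are not log2 heights, the difference was -0.03.

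A further *cry2* region of 409 bp at chr25:13762384-13762792, in intron 3 of 10 and 12130 bp downstream of the start, was open in every library as well. Its percentile was 88.7, 84.9 and 87.1 in control replicates 1, 2 and 3 and 86.4, 84.7 and 86.4 in cortisol replicates 1, 2 and 3. The cortisol library was below its control in all 3 pairs, with differences of -2.32, -0.264 and -0.694 points, and the groups overlapped. The means differed by -1.09 points against SD of 1.91 and 1.02 (exact permutation test, two-sided, p = 0.4), and the log2 height by 0.07 ± 0.18 (SE, limma, adjusted p = 0.88). Rank and centred height thus had opposite signs at both *cry2* regions, and neither passed a test. The intron outranked 83.7% of the 1103 listed intron regions, whereas the *per1b* intron outranked 22.3% of them.

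**Figure D2:**
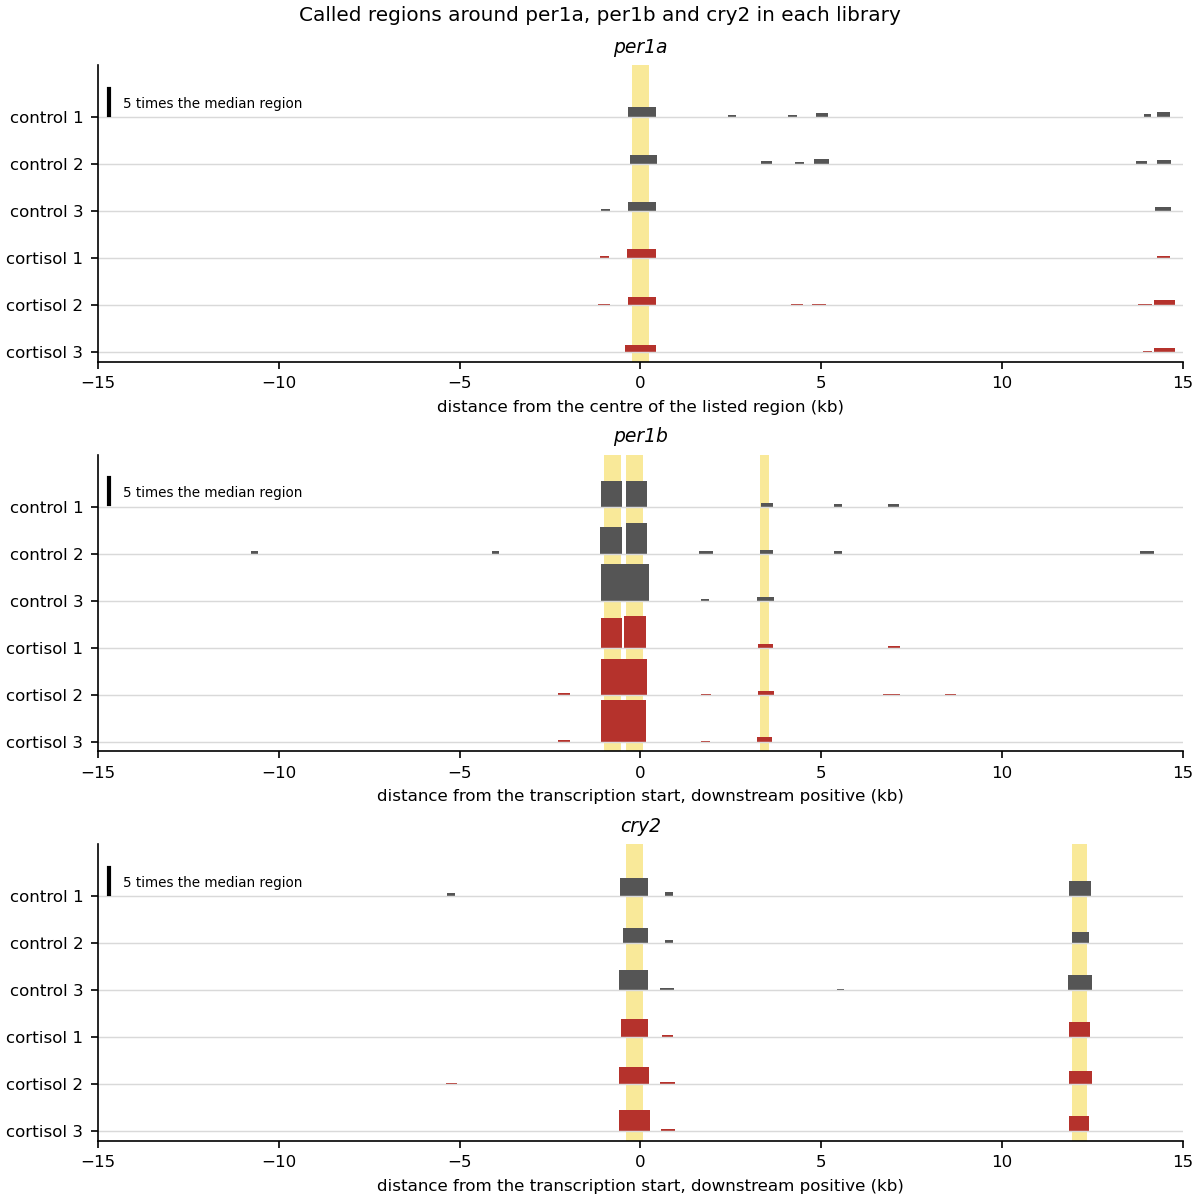
Called regions within 15 kb of *per1a*, *per1b* and *cry2* in each library, with the height of each box giving the tallest summit relative to the median common region (scale bar, 5 times). Grey boxes are control libraries, red boxes cortisol libraries, and yellow bands the listed regions. The *per1b* promoter reached 8.02 times the median region in cortisol replicate 3, and it was called as 1 region in 3 libraries and as 2 in the other 3.

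The called regions were wider than the listed ones, and their widths overlapped between groups. The peak over the *per1a* region was 748 to 770 bp wide in controls and 756 to 854 bp in the cortisol group. Over the *cry2* promoter it was 698 to 791 bp in controls and 737 to 867 bp in the cortisol group, and over the *cry2* intron 488 to 685 bp and 579 to 620 bp. The *per1b* intron peak was 339 to 456 bp wide in controls and 429 to 451 bp in the cortisol group. Widths depend on the background and depth of each library, which were not equal.

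Other called regions lay near the 3 genes without being listed for them. Within 50 kb of the reference points there were 19 merged regions around *per1a*, 25 around *per1b* and 15 around *cry2*, of which 5, 4 and 4 had a peak in every library. For *per1a* the reference point was the listed region, since 1 row does not give the strand. Of these 13 shared regions, 8 held a listed region and 5 did not, and some of those around *per1a* were listed for its neighbours *vamp2* and *and3*. All 5 unlisted regions were lower in the cortisol group in log2 height with the median centring, by a median of 0.21, and none was called by limma. The list itself is a choice by difference, and of all 5259 unlisted common regions 92.6% were lower, with a median of -0.38, so 5 of 5 is near that share. Over background the median of the 5 was 0.73, where all unlisted common regions were at 0.57 and all common regions at 0.97. On normal scores, which are not in log2 units, the median of the 5 was 0.0333, where all unlisted common regions were at -0.19. The largest difference was at chr7:50565936-50566742, 18.9 kb downstream of the *per1b* start, with heights of 0.600, 0.698 and 0.273 times the median region in control replicates 1, 2 and 3 and 0.432, 0.231 and 0.230 times in cortisol replicates 1, 2 and 3 (log2 -0.77 ± 0.44 SE, limma, adjusted p = 0.69). Control replicate 3 lay among the cortisol libraries.

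The unlisted region of 2219 bp at chr10:22901687-22903905, 40.5 kb from the *per1a* region, differed by -0.73 ± 0.59 (log2, SE, limma, adjusted p = 0.70). Its height was 4.42, 6.35 and 1.27 times the median region in control replicates 1, 2 and 3 and 3.24, 1.95 and 1.23 times in cortisol replicates 1, 2 and 3. The cortisol library was lower in each pair, but replicate 3 was low in both groups. With the replicate number as a block, limma called this region lower in the cortisol group (SE 0.21, adjusted p = 0.039), as it did 4.76% of common regions, while 0.708% were called higher. The 658 common regions called lower included no more than 55 of the 8968 listed regions in the fit. The share called lower among unlisted regions, to which this region belongs, was therefore larger than 4.76%. None of the 6 listed regions of *per1a*, *per1b* and *cry2* was called with the block (adjusted p from 0.35 to 0.86).

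Libraries of the same age shared part of their pattern. The 10-month libraries had the highest percentile of their group at the *per1b* intron (36.7 and 44.1) and the lowest at *per1a* (72.5 and 65.4). The 12-month libraries were lowest at the *per1b* intron (21.2 and 31.7) and at the *per1b* promoter region nearer to the start (95.8 and 96.5). The 10-month libraries also had the fewest peaks of their groups (29401 in control, 26905 in cortisol) and the lowest background (3.38 and 1.98 reads). With 1 library per age and group, age, replicate number and these library differences cannot be told apart, and no test was made.

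**Figure D3:**
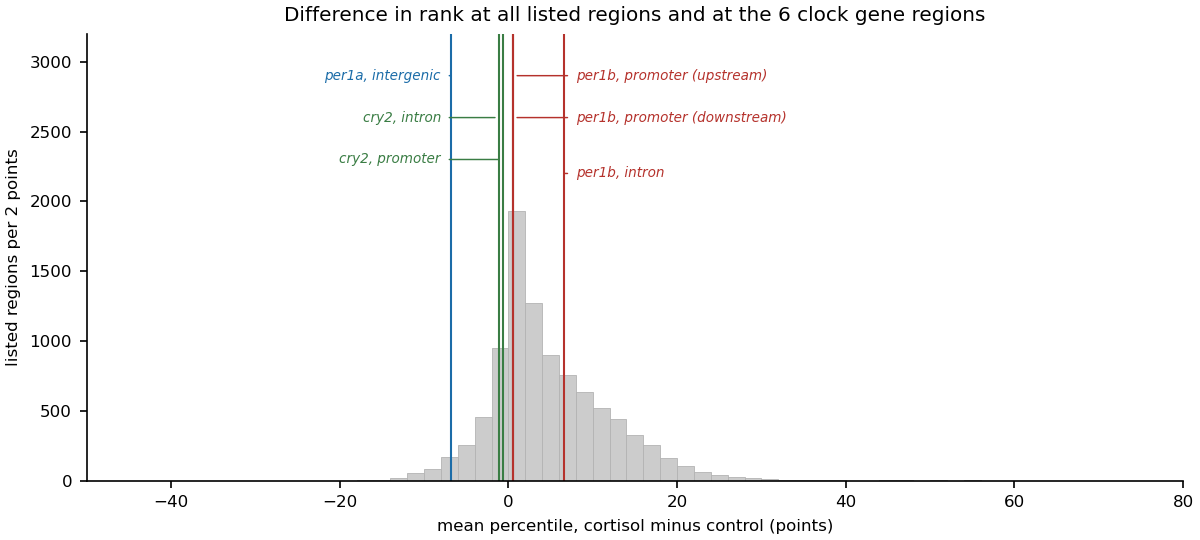
Difference in mean percentile, cortisol minus control, for all 9546 listed regions (grey bars, number of regions per 2 points) with the 6 clock gene regions as vertical lines (*per1a* blue, *per1b* red, *cry2* green). *per1a* lay at -6.84 points, the promoters of *per1b* and *cry2* within 1 point of 0, and the *per1b* intron at 6.61 points, against a median of 3.24 points for all listed regions. In controls the mean percentile was 97.1 and 97.4 at the *per1b* promoter regions and 91.8 at the *cry2* promoter. Whether these ranks limited a rise in points was not tested.

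The rest of the clock pathway was described through a list of 57 genes, of which 38 had 74 listed regions. Mean percentile was higher in the cortisol group at 57 of the 74 and lower at 17, a share of 77.0% against 79.0% of all listed regions. The median difference was 0.726 points against 3.24 points for all listed regions, and in log2 height 0.22 against 0.18. A region ranked near the top can rise by few points, and the highest-ranked regions of the 38 genes had mean percentiles of 47.2 to 99.2. The median was smaller than that of the list in points but not in log2 height with the median centring. The smaller median in points thus does not by itself show that clock regions differed less. Whether their ranks account for it was not tested. Of the 74 regions, 66 were above 0 in log2 height with the median centring and 47 with the centring on the taller regions, which shifts all regions alike. On normal scores, which are not log2 heights, 55 were above 0. The same counts were not made for all listed regions. With the centring on the taller regions the median of the 74 was 0.10 against 0.058 for all listed regions, and on normal scores 0.086 against 0.10. Counted against the median of all common regions, 60 of the 74 lay above it with either centring and 45 on normal scores. The list is the cortisol side of the authors' comparison on these libraries. With the median centring, all listed regions had a median of 0.18 against 0.03 for all common regions. Without the same counts for all listed regions, neither these counts nor those above 0 can tell the clock regions from the list. In limma 0 of the 74 regions were called, with or without the block, and 0 had an unadjusted p below 0.05 without it. Such counts were also low among the 8968 listed regions in the fit, of which 275 had an unadjusted p below 0.05 without the block. With the block, 106 of them were called higher and 55 lower, where several listed regions can share 1 merged region. The genes with no listed region included *clocka*, *clockb* and *npas2*, which encode the Clock partners of Bmal.

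**Figure D4:**
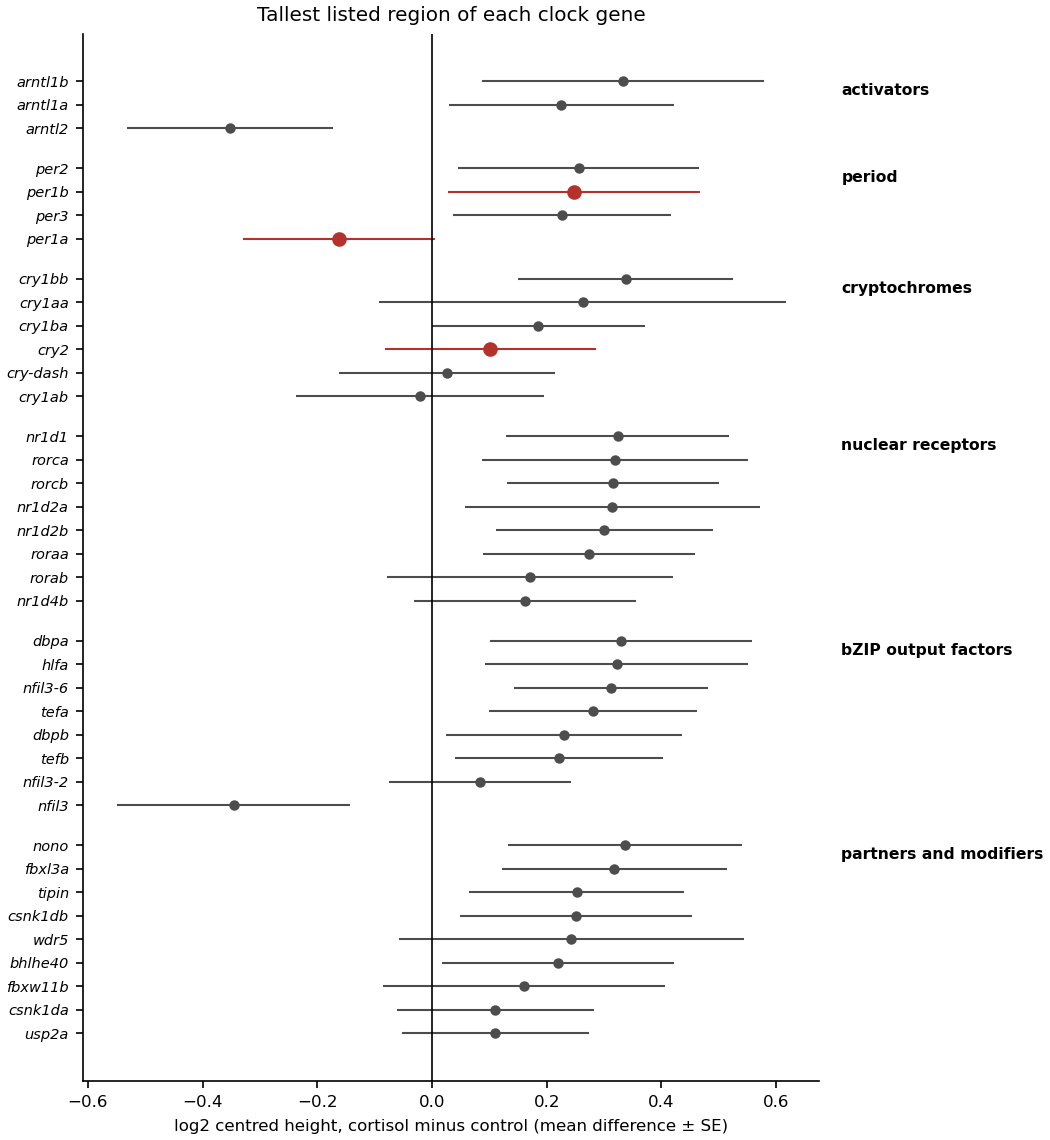
Difference in centred log2 height between cortisol and control libraries (mean difference ± SE from limma, 3 libraries a group) for the highest-ranked listed region of each of 38 clock genes, grouped by role, with *per1a*, *per1b* and *cry2* in red. *arntl2*, *nfil3*, *per1a* and *cry1ab* lay below 0, and no region was called.

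Among the activators, the Bmal genes *arntl1a*, *arntl1b* and *arntl2* each had 1 listed region. The *arntl2* promoter was at percentiles 50.7, 56.5 and 61.8 in control replicates 1, 2 and 3 and 42.5, 24.5 and 47.0 in cortisol replicates 1, 2 and 3, the only listed clock region with every cortisol library below every control. Its difference was -18.3 points (exact permutation test, two-sided, p = 0.1, the smallest possible) and -0.35 ± 0.18 in log2 height (SE, limma, adjusted p = 0.69). Every region without overlap between the groups has that permutation p, so it only restates the lack of overlap. *arntl1a*, at its promoter, and *arntl1b*, at an intergenic region 24522 bp upstream of its start, ranked above 89 in every library. They differed by 0.711 and 1.28 points.

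All 4 Period genes had listed regions, and with the median centring *per1a* had the opposite sign to the tallest regions of the others. The tallest region of *per2*, a light-responsive Period gene in zebrafish, was at percentiles 98.5 to 99.1 in controls and 99.0 to 99.4 in the cortisol group, 18677 bp upstream of its start. The *per3* promoter was at 97.1, 96.9 and 96.6 in control replicates 1, 2 and 3 and 97.5, 97.3 and 97.3 in cortisol replicates 1, 2 and 3. These values did not overlap, although they differed by only 0.445 points (exact permutation test, two-sided, p = 0.1, as at every region without overlap). In log2 height *per2*, *per3* and *per1b* were higher by 0.26 ± 0.21, 0.23 ± 0.19 and 0.25 ± 0.22 (SE) and *per1a* was at -0.16 ± 0.17, and these differences between genes were not tested.

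Of the 8 cryptochrome genes, 6 had 9 listed regions, 6 of them with a higher and 3 with a lower mean percentile in the cortisol group. The lower ones were both regions of *cry2* and the promoter of *cry1ab*, at -3.09 points. The share higher was 66.7%, against 79.0% of all listed regions. Promoter regions of *cry1bb* and *cry1aa* differed by 1.42 and 4.77 points, and that of *cry1aa* spread from 56.0 in control replicate 1 to 87.0 in control replicate 3. A region in the 5' UTR of *cry1ab* had every cortisol library above every control, at 14.3, 16.3 and 75.9 against 9.73, 2.35 and 12.2, but the value of 75.9 in cortisol replicate 3 came from a called region that also covered the *cry1ab* promoter.

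The nuclear receptors of the loop, the Rev-erb repressors (*nr1d* genes) and the Ror activators, had 23 listed regions in 8 genes. Mean percentile was higher in the cortisol group at 17 of the 23 and lower at 6, a share of 73.9% against 79.0% of all listed regions. Over the 23 regions the log2 difference ran from -0.26 to 0.40. The highest-ranked region of each of the 8 genes had the higher mean percentile in cortisol libraries. At these highest-ranked regions the log2 difference ran from 0.16 at *nr1d4b* to 0.32 at *nr1d1*. The *rorca* region 1156 bp upstream of its start did not overlap between groups, at 98.6 to 99.0 in controls and 99.3 to 99.4 in the cortisol group. The output factors of the D-box, *dbpa*, *dbpb*, *tefa*, *tefb*, *hlfa* and the *nfil3* family, had 20 regions in 8 genes, 15 higher and 5 lower in mean percentile. That was a share of 75.0% higher, against 79.0% of all listed regions. *nfil3*, a repressor at D-boxes, was at -11.6 points at its promoter, with percentiles of 61.9 to 71.9 in controls and 52.2 to 64.8 in the cortisol group. *hlfa*, an activator at D-boxes, ranked from 98.4 to 99.7 in all libraries at its tallest region, and its intron region 32620 bp downstream of the start did not overlap, at 10.4 to 11.3 in controls and 18.3 to 26.4 in the cortisol group.

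Among partners and modifiers, 12 regions in 9 genes were listed, 11 with a higher and 1 with a lower mean percentile in the cortisol group. The share higher was 91.7% against 79.0% of all listed regions, and the difference in share was not tested. Both regions of *csnk1db*, whose product belongs to the casein kinases that phosphorylate Period proteins, had every cortisol library above every control. They differed by 0.407 points at the region 2308 bp upstream of the start and 5.17 points at the promoter. The promoter of *nono*, an RNA-binding protein that associates with Period proteins in mammals, did so as well, at 96.1 to 97.1 in controls and 97.3 to 97.9 in the cortisol group. In all, 7 of the 74 clock regions were above every control and 1 was below, against 9.54% and 0.775% of all listed regions.

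The profiles of *per1a*, *per1b* and *cry2* over the 6 libraries were compared with those of 6037 other genes, as the root mean square difference in log2 height after removing each gene's own mean. Nearest to *per1a* were *psmg3*, *cotl1* and *rassf1* at 0.0434, 0.0601 and 0.0680, against a median of 0.324 over all genes. Nearest to *per1b* were *mtpn*, *sept7a* and *snx3* at 0.0251, 0.0342 and 0.0350, and nearest to *cry2* were *smad2*, *phf20b* and *srsf5a* at 0.0258, 0.0282 and 0.0351. The median over all genes was 0.218 for *per1b* and 0.210 for *cry2*. The distance was 0.350 between *per1a* and *per1b*, 0.249 between *per1a* and *cry2*, and 0.189 between *per1b* and *cry2*. From *per1a*, 3698 genes were nearer than *per1b* and 1244 nearer than *cry2*. From *per1b*, 5345 were nearer than *per1a* and 2203 nearer than *cry2*, and from *cry2*, 3963 were nearer than *per1a* and 2415 nearer than *per1b*.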

How the data were processed

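Per the labels and the paper's methods, the authors used Trimmomatic 0.32 and 30 bp of each read, Bowtie 1.0.0 for alignment against GRCz10, and MACS2 (version 2.1.1.20160309, q limit 0.001) for peaks, keeping duplicates and taking 1 background per list. The deposited score, 10 times the -log10 q of a summit, was left unscaled between lists. The authors' table of listed regions was annotated with HOMER 4.8, and of it positions, annotation, distances to the transcription start and gene names were used. Its names of unplaced contigs (125 rows) were rewritten to those of the peak lists. Its peak score holds the authors' own comparison and was not used.

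Heights and backgrounds were recovered from the steps between scores, tested on simulated lists, and checked on the pooled lists (21.49 against 21.47 summed over controls, 14.23 against 14.23 over cortisol libraries). A region took the best peak overlapping it by at least 1 bp. Read counts were not used here, so depth is known only through the background, of 1.98 to 9.06 reads. Common regions were fitted with limma 3.58.1 in R 4.3.3 (trend, Benjamini-Hochberg adjustment over 13835 regions), also tested on simulated data. Single regions were compared by exact permutation over the 10 splits of libraries. Python 3.11.15, numpy 2.4.6, pandas 2.3.3, scipy 1.17.1 and matplotlib 3.10.9 were used.

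Replicate numbers pair the libraries by age in the labels, and by sibling groups in the paper. Deviations of log2 height from the group means correlated by 0.654, 0.192 and 0.643 between libraries of a number. The paper calls the replicates of a group independent, and their ages were 12, 11 and 10 months. How they were otherwise kept separate is not given in the sources used here.

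The genes named were all listed regions of *per1a*, *per1b* and *cry2*, clock genes with a listed region (highest mean percentile each), and the 3 genes of nearest profile. The clock regions without overlap between groups were named after their values were seen. Of 72 symbols in the clock list, 69 matched RefSeq names, giving 57 genes. The members, the clock list and the marker lists were chosen with earlier results of these data known. The strand of *per1a* cannot be read from 1 row, so distances around it are from its listed region. The planned motif search needs a genome sequence and was not run. No sequence was used here.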

Additional observations from a re-analysis of the deposited data

How the results depend on the processing

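The alternatives were ranking within each library's own peaks, a minimum overlap of 50%, merged regions, scores of at least 100, 3 other scalings, the replicate block, windows of 20 and 100 kb and leaving out each library. No listed region of *per1a*, *per1b* or *cry2* and no other listed clock region was called by limma under the 3 scalings, the block or without any 1 library, the settings to which limma applied. The *per1b* intron went from 6.61 to -2.52 points when ranked within each library's own peaks. In log2 height, *per1a* was 0.78 with heights over background. With centring on the taller regions, the *per1b* intron was -0.0530, the *cry2* promoter -0.0215 and the *cry2* intron -0.0554. On normal scores, which are not log2 heights, the *cry2* promoter was -0.0345 and the *cry2* intron -0.0523. The median of all common regions was 0.03 in the main analysis, 0.97 over background, -0.09 with the taller regions and 0.05 on normal scores. The first 2 of these alternatives shift all regions alike, so distances from that median do not change by construction. On normal scores *per1a*, the *cry2* promoter and the *cry2* intron lay at -0.26, -0.0871 and -0.105 from it and the *per1b* intron at 0.14. The unlisted neighbours had a median log2 difference of -0.21, which became 0.73 over background and -0.703 in the window of 100 kb, where 11 regions were counted. On normal scores, not in log2 units, the median of the neighbours was 0.0333. All unlisted common regions were at -0.38 with the median centring, 0.57 over background and -0.19 on normal scores. With the replicate block limma called 756 common regions, 98 higher and 658 lower, against 0 without it, and the block called none of the listed clock regions. Leaving out 1 library gave a range of -8.80 to -4.73 points at *per1a*, -0.0904 to 1.45 at the upstream and -0.237 to 1.23 at the downstream *per1b* promoter region, 2.22 to 9.96 at the *per1b* intron, -1.27 to 0.147 at the *cry2* promoter and -2.09 to -0.189 at the *cry2* intron. In log2 height the ranges were -0.25 to -0.08 at *per1a*, 0.11 to 0.37 at the *per1b* promoter, -0.03 to 0.15 at the *per1b* intron, -0.01 to 0.20 at the *cry2* promoter, -0.06 to 0.14 at the *cry2* intron and -0.34 to -0.09 for the unlisted neighbours. The sign turned without control replicate 1 at both *per1b* promoter regions in rank, without cortisol replicate 1 at the *cry2* promoter in rank, without control replicate 1 (-0.0064) or cortisol replicate 3 (-0.0319) at the *per1b* intron in height, and without control replicate 2 at both *cry2* regions in height (-0.0087 and -0.0639). Where the sign turned for a single region, the cause was not tested. Using the upstream summit itself at the *per1b* promoter, a choice made after seeing the data, gave 0 points there. Apart from the *per1b* intron ranked within each library's own peaks, alternatives for rank moved each percentile difference by less than the larger group SD. At the *cry2* promoter, the moves to 0.147 without cortisol replicate 1 and to -1.27 without cortisol replicate 3 exceeded the control SD of 0.584. The SD of the cortisol group there was 1.42. Heights are whole reads, and the median common region held 61 to 121 reads, which limits their resolution. On simulated lists, heights were recovered least exactly at the lowest backgrounds, which are those of cortisol replicate 3 and control replicate 3.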
